A study of Mus musculus with 14 samples.

Results

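The mouse surrogate light chain genes are Igll1 (gene ID 16136), Vpreb1 (22362), Vpreb2 (22363) and Vpreb3 (22364), and these 4 of 21887 protein-coding genes are described here. Peaks were assigned to them by position: a peak belonged to a gene when it overlapped the annotated gene body extended by 10 kb on each side. This gave 102 peaks of the 196179 on placed chromosomes in 9 peak lists. The lists came from ChIP-seq, which sequences DNA bound by a protein, with antibodies against EBF1 or Brg1. In 5 libraries Brg1 was profiled in C57BL/6 fetal liver progenitors that were EBF1 -/- and c-kit+, taken from embryos of day 16 to 18. They had been transduced with a pMys retroviral vector and cultured for 14 to 20 days on OP9 stroma with IL7, SCF and Flt3. The vector carried GFP alone (empty vector), EBF1 wt, EBF1 dC (the C-terminal domain deleted), EBF1 dPLD (residues 480 to 520 deleted) or EBF1 F-GATA3 (the C-terminal domain replaced by the TA1 domain of GATA3). Another 2 Brg1 libraries and 2 EBF1 libraries came from A-MuLV cells, which are pro-B cells that Abelson murine leukemia virus had transformed. In these, the cells' own EBF1 (EBF1 fl/fl) had been replaced by EBF1 wt or dC. According to the labels, cells with wt or F-GATA3 were at the pro-B stage, those with dC or dPLD were partly blocked before it, and those with the empty vector were blocked before it. Each group had 1 library, so differences between groups have no replicate check and no test was made. The stage of the fetal liver cells and the EBF1 version they carried cannot be told apart. Each list held between 6155 and 30301 peaks, and read depth is not given in the sources used here. Crosslinking was with 2% formaldehyde in fetal liver cells and 1% in A-MuLV cells, with EGS added for Brg1.

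Igll1 encodes the lambda5 chain and the Vpreb genes encode VpreB chains. Together lambda5 and VpreB stand in for a conventional light chain and pair with the immunoglobulin mu heavy chain, and this pre-B-cell receptor signals that a heavy chain gene was rearranged successfully. VpreB3 is a related protein of the endoplasmic reticulum that binds newly made immunoglobulin chains. EBF1 is a DNA-binding factor required for the B lineage that acts with E2A at Igll1 and Vpreb1, and it binds a palindromic sequence as a dimer. Brg1 is an ATPase that drives BAF chromatin remodelling complexes. The series title names recruitment of Brg1 by the C-terminal domain of EBF1 as its question.

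The promoters of Igll1, Vpreb1 and Vpreb2 are shown because each was overlapped by an EBF1 peak with both forms of EBF1. The 250 bases before each transcription start are given 5′ to 3′ along the gene's own strand, from RefSeq on GRCm38.p6. All 4 members matched an entry of the promoter table. Capitals mark matches to CCCNNGNG on either strand (CNCNNGGG on the other) or to the 9-letter palindrome CCCNNNGGG. The first pattern is a loose form of the EBF1 palindrome, and the second was chosen after these promoters had been read. Igll1 lies on the minus strand of chromosome 16 (gene body chr16:16860671-16863985), and its bases are chr16:16863986-16864235. Vpreb1 lies on the same strand (chr16:16868401-16869255), and its bases are chr16:16869256-16869505. Vpreb2 lies on the plus strand (chr16:17979445-17981274), and its bases are chr16:17980315-17980564.
Igll1: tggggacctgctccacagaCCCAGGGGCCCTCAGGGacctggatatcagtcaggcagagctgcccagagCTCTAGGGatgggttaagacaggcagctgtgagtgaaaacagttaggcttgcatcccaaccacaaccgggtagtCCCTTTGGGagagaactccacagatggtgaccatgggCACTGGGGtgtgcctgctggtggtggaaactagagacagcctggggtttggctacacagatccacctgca
Vpreb1: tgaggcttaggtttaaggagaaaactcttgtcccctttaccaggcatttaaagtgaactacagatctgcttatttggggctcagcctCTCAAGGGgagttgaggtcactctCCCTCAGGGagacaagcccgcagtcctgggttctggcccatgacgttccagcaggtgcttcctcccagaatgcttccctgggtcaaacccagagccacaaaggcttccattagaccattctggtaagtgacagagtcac
Vpreb2: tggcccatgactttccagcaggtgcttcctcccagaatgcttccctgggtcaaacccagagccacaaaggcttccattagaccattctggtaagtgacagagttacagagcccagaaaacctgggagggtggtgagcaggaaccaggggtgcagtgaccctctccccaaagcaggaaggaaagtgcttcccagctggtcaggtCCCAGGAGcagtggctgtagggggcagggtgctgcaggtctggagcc

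The Igll1 promoter held 3 matches to CCCNNGNG, of which CCCAGGGG also fitted the stricter palindrome CCCNNGGG. Adjacent to it, CCCTCAGGG was centred on the EBF1 wt summit, 0 bp away, and lay 24 bp from the dC summit. The Vpreb1 promoter also held CCCTCAGGG, 8 bp from its EBF1 wt summit and 20 bp from its dC summit. CTCAAGGG lay 16 bp from the same wt summit. In Vpreb2 the single match, CCCAGGAG, lay 208 bp from the EBF1 wt summit. The EBF1 summits of Vpreb2, at -252 bp (wt) and -271 bp (dC), lay outside the 250 upstream bases searched. The bases under these summits were therefore not read, and the distance cannot be set beside those of Igll1 and Vpreb1. Among 32851 promoters of 300 bases (250 before the start and 50 after), 51.8% held CCCNNGNG, 13.7% held CCCNNGGG and 12.7% held CCCNNNGGG. The exact letters CCCTCAGGG, likewise chosen after reading, were in 0.621%. The E-box CANNTG, a pattern bound by E2A proteins, was in 72.3%. It occurred 3 times in the Igll1 promoter, 1 time in that of Vpreb1, 2 times in that of Vpreb2 and 5 times in that of Vpreb3. The Vpreb3 promoter held none of the CCC patterns. A match is a run of letters and was not tested as a binding site.

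Vpreb1 and Vpreb2 are near-copies, and their promoter windows shared 156 aligned bases of which 153 (98.1%) were identical, with 91 identical bases in a row. Between the other pairs of members the longest identical run was 7 to 10 bases. How reads that fit both copies were placed is not given in the sources used here, so the split of signal between Vpreb1 and Vpreb2 is uncertain. The EBF1 summits of both genes lie just outside the aligned stretch. That stretch ends at an edge of each promoter window, so likeness beyond it was not read. Carried on without gaps, the alignment places the Vpreb2 summits 35 bp (wt) and 12 bp (dC) from the counterparts of the Vpreb1 summits. CCCTCAGGG of Vpreb1 lies outside the aligned stretch, and bases further upstream of Vpreb2 were not used here.

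All 4 genes had at least 1 peak within 10 kb in each of the 9 lists. For Brg1 in fetal liver cells, the share of all protein-coding genes with such a peak was 45.2% with the empty vector, 62.9% with wt, 63.3% with dC, 61.7% with dPLD and 60% with F-GATA3. For Brg1 in A-MuLV cells it was 52.2% with wt and 52.1% with dC. EBF1 peaks were rarer, near 19.9% of genes with wt and 32.9% with dC. The exact 95% binomial intervals of all background shares given here reach at most 1.4 percentage points to each side and cover counting error only.

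Promoter windows with a Brg1 peak were fewer with the empty vector than with the EBF1 versions, among the members and among all protein-coding promoters. With the empty vector, 0 of 4 promoter windows (the same 300 bases) was overlapped by a Brg1 peak, against 22.7% of 21263 protein-coding promoters. With wt, dC, dPLD and F-GATA3 4 of 4 were overlapped in each list, against 45.8%, 47.2%, 45.7% and 43.2% of promoters. In each of these lists 1 broad peak covered the windows of both Igll1 and Vpreb1. With promoters of 1 kb on each side, 1 of 4 (Igll1) had an empty-vector peak. In A-MuLV cells 3 of 4 had a Brg1 peak with wt (35.6% of promoters) and 3 of 4 with dC (34.1%). EBF1 peaks also overlapped 3 of 4, with wt against 2.57% of promoters and with dC against 6.58%. The member without an overlap in the A-MuLV lists was Vpreb3 each time, and its start used here lies inside the annotated gene body. The background shares of the 4 EBF1 versions lay between 43.2% and 47.2%, and the members had the same count under all of them.

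**Figure D1:**
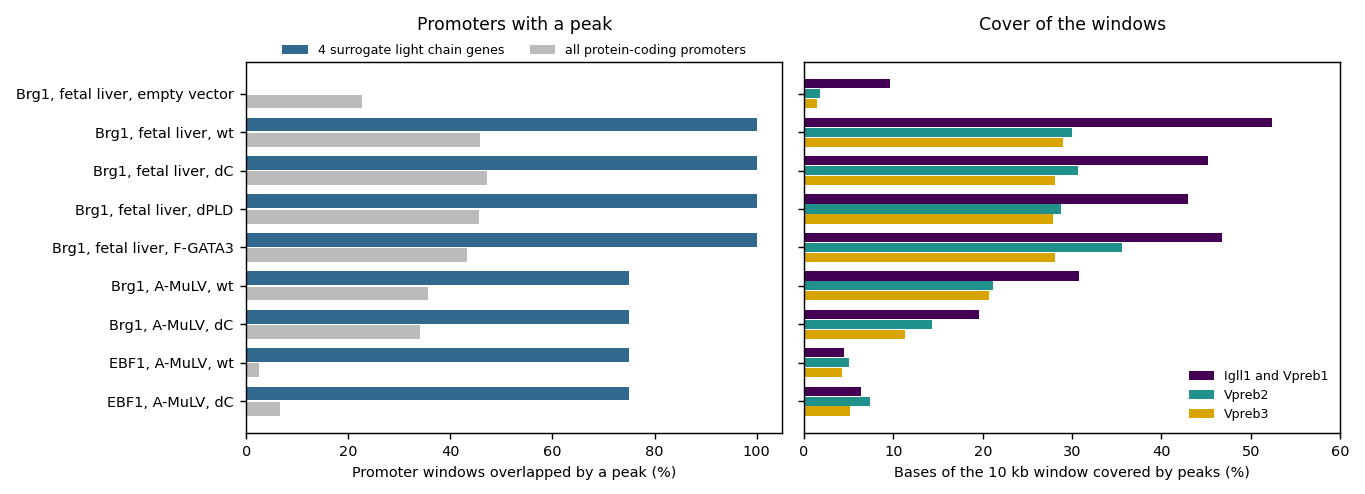
Left, the percentage of promoter windows (300 bases) overlapped by a peak, for the 4 surrogate light chain genes (blue bars) and for 21263 protein-coding promoters (grey bars), in each list. Right, the percentage of bases of each 10 kb window covered by peaks, for the Igll1 and Vpreb1 locus, Vpreb2 and Vpreb3. The empty vector has no blue bar and covers under 10% of every window, whereas each EBF1 version in fetal liver cells covers 27.8% to 52.3%. Cover around all genes is not shown.

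Brg1 peaks covered 4.55% of the 77049 bases of these windows with the empty vector. With wt they covered 37.9%, with dC 35.2%, with dPLD 33.7% and with F-GATA3 37.1%. The empty-vector list was also shorter, with 17687 peaks against 25072 to 30301, and had the lowest median width of the fetal liver lists. Cover around all genes is not given here, so the contrast is not shown to be particular to these windows. In A-MuLV cells the cover was 24.6% with wt and 15.2% with dC. EBF1 peaks covered 4.53% (wt) and 6.26% (dC). Fetal liver Brg1 lists called broader peaks throughout the genome, with a median width of 978 to 1325 bp, against 381 bp (wt) and 348 bp (dC) in the A-MuLV Brg1 lists. The lists also differed in their lowest −log10 q, which was 1.37 (wt) and 1.33 (dC) for A-MuLV Brg1 and near 10 for all others. Cell type, crosslinking and peak width differed together between the fetal liver and A-MuLV lists and cannot be told apart.

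**Figure D2:**
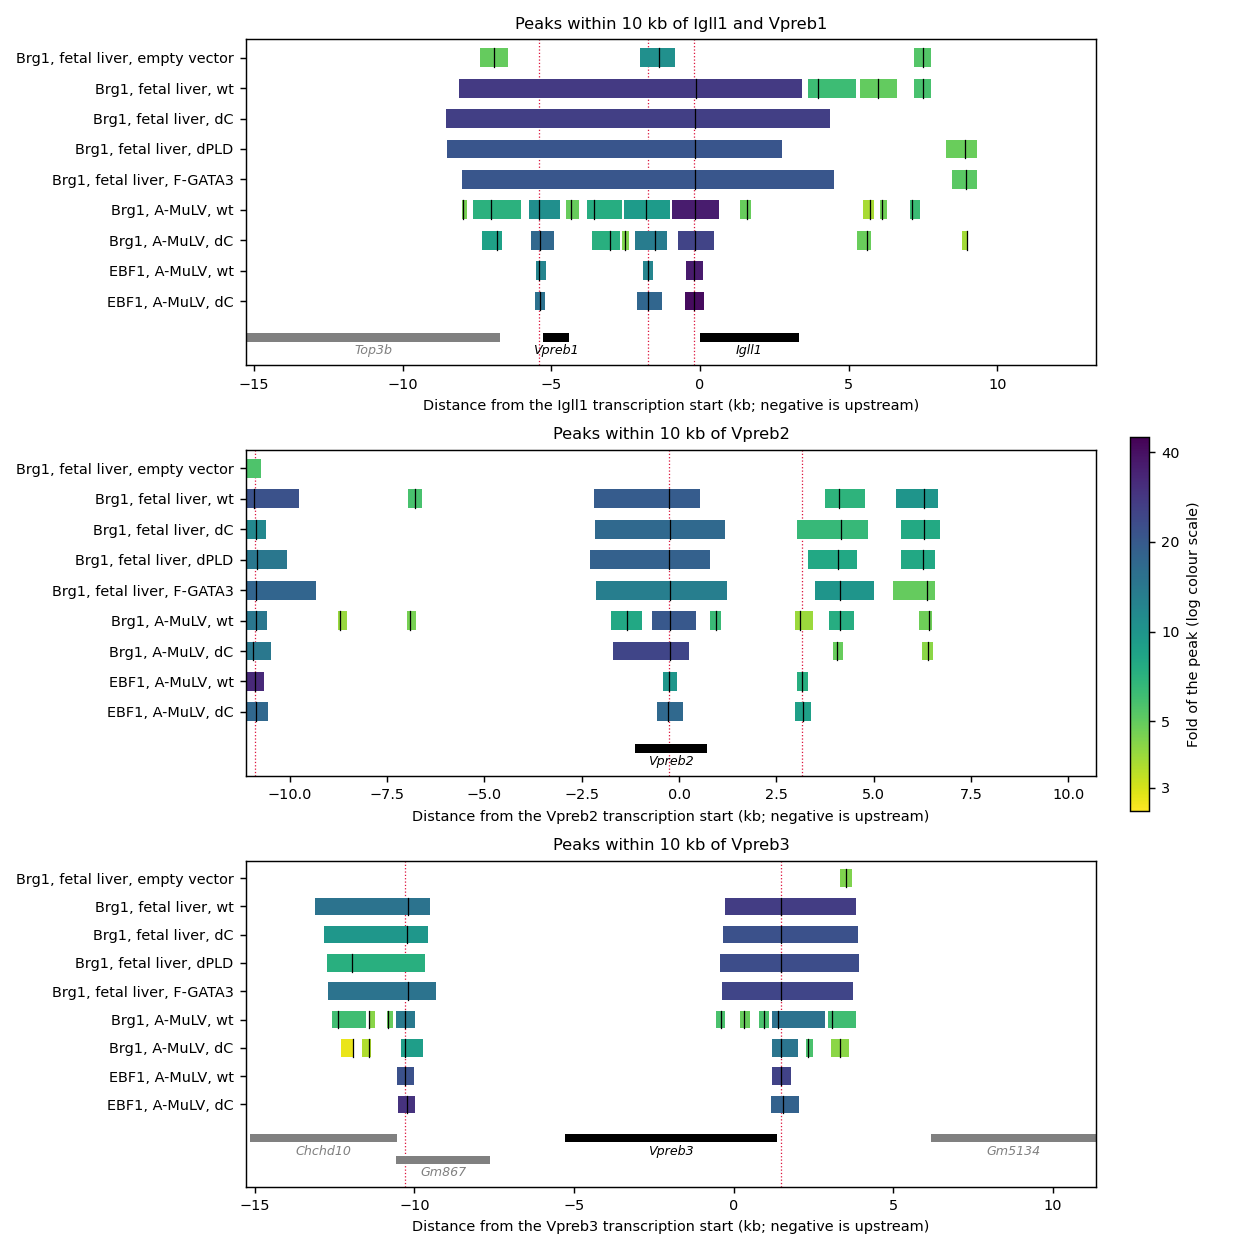
Peaks of the 9 lists at the 3 loci, drawn to scale along each gene's own direction from the transcription start (kb, negative is upstream). Bars are peaks coloured by the authors' fold on a log colour scale, black ticks are summits, red dotted lines are EBF1 wt summits, and black and grey bars below are gene bodies. One broad fetal liver Brg1 peak spans both Igll1 and Vpreb1 with each EBF1 version, where the empty vector has 3 separate peaks.

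At Igll1 and Vpreb1, which lie 4416 bp apart and share one locus, each EBF1 version gave a single broad Brg1 peak over both genes. It was 11528 bp wide with wt, 12911 bp with dC, 11250 bp with dPLD and 12531 bp with F-GATA3, the last being the widest peak of its list. Its summit lay at the Igll1 promoter in every version, at -152 bp with wt, -167 bp with dC, -180 bp with dPLD and -175 bp with F-GATA3. The authors' fold, the ratio of ChIP signal at the summit to local background, was 27.6 with wt, rank 52 of 29354 peaks. It was 26.3 with dC (rank 44 of 30301), 21.0 with dPLD (rank 140 of 27550) and 20.7 with F-GATA3 (rank 106 of 25072). The peak thus stood among the highest 200 of its list under each version. Folds were scaled within each library, so they are set side by side and not compared between lists.

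With the empty vector the same locus held 3 Brg1 peaks, and none of them touched either promoter window. The highest had its summit at -1379 bp from Igll1, between the genes, with a fold of 10.7 (rank 905 of 17687). A second, at 4.95 (rank 15549), covered the start of Top3b, a topoisomerase gene whose body begins 1467 bp from Vpreb1. The remaining one, at 5.41, lay downstream of Igll1 with its summit 7503 bp from the start. Each of these positions also had a Brg1 peak with EBF1 wt, so by overlap alone the broad wt peak counted as present with the empty vector.

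In A-MuLV cells the locus was divided into narrower Brg1 peaks, 11 with wt and 8 with dC. The one at the Igll1 promoter was the strongest at the locus in both lists, with a fold of 36.1 (rank 17 of 24493) with wt and 25.1 (rank 11 of 24420) with dC. Its summit lay at -183 bp and -168 bp. The peak at the Vpreb1 promoter had a fold of 10.8 (rank 1210) with wt and 17.1 (rank 82) with dC, with summits at -155 bp and -99 bp. A further peak between the genes, with summits at -1836 bp and -1518 bp from Igll1, had folds of 9.34 (wt) and 13.5 (dC). Top3b had a peak over its start in both lists, at 7.08 with wt and 8.56 with dC.

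EBF1 itself had 3 peaks at this locus with either form. The one at the Igll1 promoter was the strongest EBF1 peak near any member, with a fold of 36.5 (rank 64 of 6155) for wt and 41.3 (rank 59 of 11147) for dC. The one at -1740 bp from Igll1 had a fold of 12.0 for wt and 17.6 for dC. At the Vpreb1 promoter the fold was 12.0 for wt and 15.3 for dC. The wt and dC summits of these 3 peaks lay 24, 18 and 28 bp apart.

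At Vpreb2 Brg1 was called at the promoter with every EBF1 version and not with the empty vector. In fetal liver cells the promoter peak had a fold of 19.7 (rank 488) with wt, 16.9 (rank 950) with dC, 18.6 (rank 336) with dPLD and 13.3 (rank 1376) with F-GATA3. In A-MuLV cells it had a fold of 20.6 (rank 120) with wt and 24.9 (rank 12) with dC. The EBF1 peak there had a fold of 9.69 (rank 2752) with wt and 17.0 (rank 1492) with dC. The gene table begins the Vpreb2 body upstream of the start used here, so the summits of these peaks lie inside the annotated body.

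A second Brg1 peak, at the edge of the window upstream of Vpreb2, was called in all 7 Brg1 lists. Its fold was 5.58 (rank 12009 of 17687) with the empty vector, below the median of that list (6.13). It was 21.8 (rank 288) with wt, 11.7 (rank 4096) with dC, 14.2 (rank 1317) with dPLD and 17.7 (rank 309) with F-GATA3. In A-MuLV cells it was 14.4 (rank 433) with wt and 14.2 (rank 201) with dC. An EBF1 peak at -10898 bp coincided with it, at a fold of 32.4 (rank 104) with wt and 17.2 (rank 1481) with dC. No protein-coding gene other than Vpreb2 has its body within 10 kb of Vpreb2.

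Downstream of Vpreb2, each EBF1 version in fetal liver cells gave 2 more Brg1 peaks that the empty vector lacked. The nearer had folds of 6.93 (wt), 6.50 (dC), 7.96 (dPLD) and 9.94 (F-GATA3), with summits between 4087 and 4162 bp from the start. The farther had folds of 10.0 (wt), 7.86 (dC), 7.99 (dPLD) and 4.94 (F-GATA3). Both were also called in A-MuLV cells, the nearer at 7.45 (wt) and 4.89 (dC) and the farther at 4.74 (wt) and 4.14 (dC). The order of this pair thus differed between lists, the nearer being the higher with F-GATA3 and in both A-MuLV lists.

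At Vpreb3, on chromosome 10 (chr10:75943024-75949657, plus strand), the gene table begins the body upstream of the start used here, position 75948300. Its promoter window and distances refer to that start. The strongest Brg1 peak was not centred on this promoter window. In fetal liver cells it spanned the promoter and the end of the gene, with its summit at 1488 bp (wt), 1476 bp (dC), 1476 bp (dPLD) and 1485 bp (F-GATA3) downstream of the start. Its fold was 27.1 (rank 58) with wt, 22.1 (rank 181) with dC, 23.1 (rank 56) with dPLD and 24.8 (rank 12 of 25072) with F-GATA3. It was 4101, 4244, 4359 and 4105 bp wide in the same order. The empty vector gave 1 peak at this gene, 3509 bp downstream, at a fold of 4.39 (rank 17171 of 17687), so close to the weakest of its list. In A-MuLV cells the matching peak had a fold of 15.1 (rank 358) with wt and 14.7 (rank 168) with dC, and it did not reach the promoter window. A separate Brg1 peak of the A-MuLV wt list, with a fold of 5.75 and its summit at -395 bp, ended just before that window.

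EBF1 bound at 2 places near Vpreb3. One lay at 1496 bp, just past the annotated end of the gene, with a fold of 25.3 (rank 252) for wt and 18.4 (rank 1254) for dC. The other lay at -10285 bp inside Gm867, next to the end of Chchd10, which encodes a mitochondrial protein, at 21.9 (rank 391) for wt and 29.8 (rank 300) for dC. Brg1 at the upstream site had a fold of 14.9 (wt), 9.71 (dC), 7.23 (dPLD) and 15.0 (F-GATA3) in fetal liver cells and of 14.0 (wt) and 8.98 (dC) in A-MuLV cells. It had no peak there with the empty vector. The third neighbour, Gm5134, begins 4839 bp from Vpreb3, beyond the last peak of the locus.

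Together the 4 genes had 8 EBF1 sites, named here by gene and distance of the EBF1 wt summit from the start. All 8 were called with both wt and dC, against 76.7% of all EBF1 wt peaks that a dC peak overlapped, and 0 were called with dC alone. The share of all dC peaks without a wt peak is not given here, and the dC list was the longer (11147 peaks against 6155). Wt and dC summits were 11 to 50 bp apart. Within each EBF1 list, Igll1 -219 was the first of the 8 by fold and Vpreb2 +3165 the last. The order of the others differed: Vpreb2 -10898 was number 2 with wt and number 5 with dC, whereas Vpreb3 -10285 was number 4 with wt and number 2 with dC. Without a replicate, the spread of such an order between libraries of one form is unknown.

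**Figure D3:**
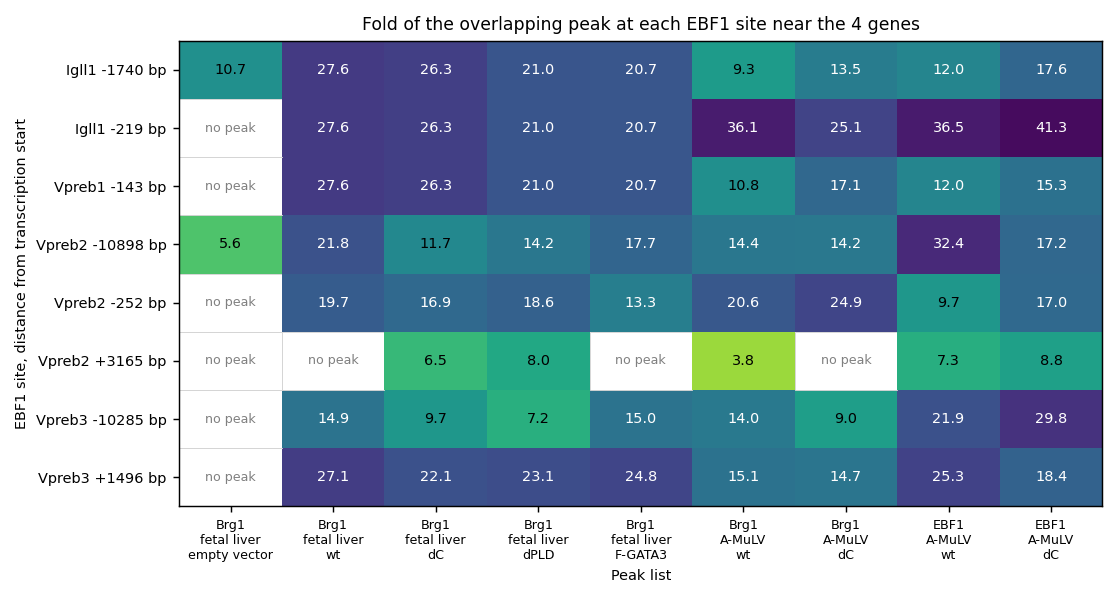
The authors' fold of the overlapping peak at each of the 8 EBF1 sites (rows) in each list (columns), coloured on a log scale, with white cells where no peak overlaps. The first 3 rows share 1 broad peak in each fetal liver EBF1 column. Only 2 sites have a Brg1 peak with the empty vector, and the row of Vpreb2 +3165 is the only one with gaps among the EBF1 versions.

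Brg1 peaks overlapped 2 of these 8 sites with the empty vector, against 20.8% of the 4719 sites called with both forms in the genome. They overlapped 7 of 8 with wt (76.4% in the genome), 8 of 8 with dC (63.7%), 8 of 8 with dPLD (70.2%) and 7 of 8 with F-GATA3 (70.9%). In A-MuLV cells the count was 8 of 8 with wt (76.9%) and 7 of 8 with dC (59.4%). The sites with a Brg1 peak under the empty vector were Igll1 -1740 and Vpreb2 -10898. Of the 8 sites, 7 had a Brg1 peak in each of the 6 lists made with an EBF1 version. The share of all EBF1 sites with Brg1 in all 6 lists is not given here. Among the 7, Igll1 -219, Igll1 -1740 and Vpreb1 -143 lay in the same broad peak with each EBF1 version in fetal liver cells. The eighth, Vpreb2 +3165, had a Brg1 peak with dC and dPLD in fetal liver cells and with wt in A-MuLV cells. With 8 sites, a difference of 1 site between versions is the smallest that can occur.

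At Vpreb2 +3165, the weakest EBF1 site of the 8 (fold 7.32 for wt, rank 4389 of 6155, and 8.84 for dC), the Brg1 overlaps were marginal. The dC and dPLD peaks that reached it had their summits 997 and 922 bp away and belonged to the neighbouring peak further downstream. The A-MuLV wt peak there had a fold of 3.85 (rank 22217 of 24493).

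The distance between summits shows how closely the peaks met. In the A-MuLV wt list all 8 Brg1 summits lay within 200 bp of the EBF1 wt summit, at 7 to 113 bp. In the dC list 6 of 7 did so, also measured to the EBF1 wt summit, at 1 to 222 bp over the 7. The share of all EBF1 sites within this distance is not given here for any list. In fetal liver cells the limit was met at 0 sites under the empty vector, 5 under wt, 5 under dC, 4 under dPLD and 5 under F-GATA3. The broad Igll1 peak accounts for 2 of the sites beyond the limit with each version, because its only summit lies at the Igll1 promoter. With dPLD the Brg1 summit of Vpreb3 -10285 was 1660 bp from the EBF1 summit.

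**Figure D4:**
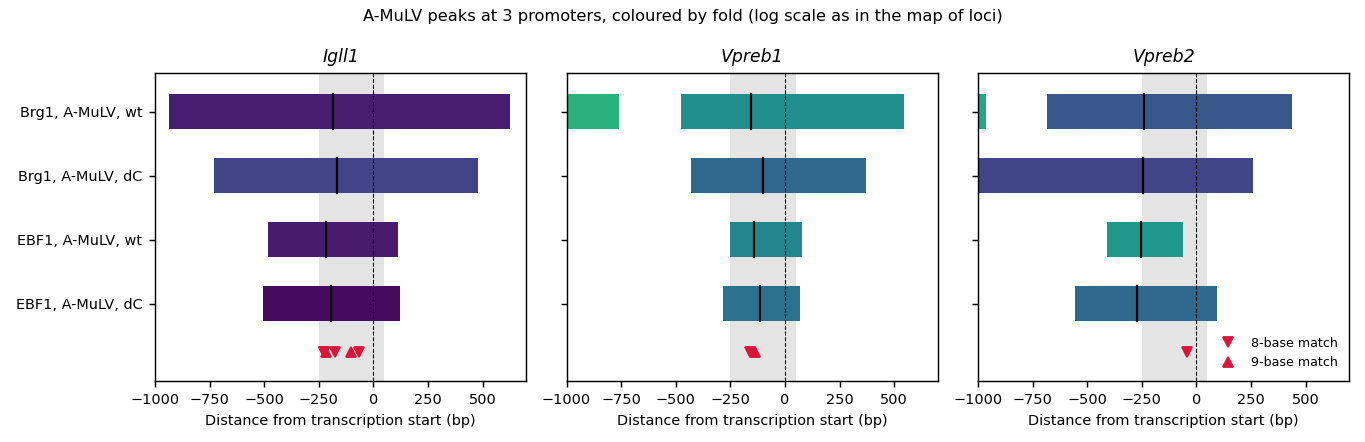
A-MuLV peaks around the starts of Igll1, Vpreb1 and Vpreb2 (bp, negative is upstream), coloured by fold, with black ticks at the summits and grey shading over the promoter window. Red downward triangles mark matches to the loose 8-base EBF1 pattern and upward triangles those to the 9-base palindrome, read in the shaded window alone. At all 3 promoters the Brg1 and EBF1 summits lie within 36 bp of each other for the same form.

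Near the members the fetal liver wt list held 11 Brg1 peaks, and 7 of them (63.6%) overlapped no empty-vector peak, close to the 63.9% of all wt peaks. Of these 7, 4 were also called with dC, dPLD and F-GATA3: the Vpreb2 promoter, both peaks downstream of Vpreb2 and the site upstream of Vpreb3. A further 2 were called with none of the 3 altered versions. One, 345 bp wide, lay upstream of Vpreb2 with its summit at -6786 bp (fold 5.83), and the other lay downstream of Igll1 (fold 5.00). The last, downstream of Igll1 with a fold of 6.19, was overlapped by the broad peak with dC and F-GATA3. The same split over all wt peaks without an empty-vector peak is not given here, so it is not shown to be particular to these genes. Counted over the 11 wt peaks, 8 were overlapped with dC (83.6% of all wt peaks), 7 with dPLD (83.6%) and 8 with F-GATA3 (77%). The wt peaks missing from an altered version had folds of 5.00 to 6.19, below the median of the list (7.20).

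In A-MuLV cells 29 Brg1 peaks were called near the members with wt and 18 with dC, although the lists were of near-equal length (24493 and 24420). Of the 29, 16 were overlapped by a dC peak, or 55.2% against 62.4% in the genome. Of the 18, 17 were overlapped by a wt peak, or 94.4% against 65.6%. The 13 peaks called with wt alone had folds of 3.85 to 6.34, and 1 of them lay at an EBF1 site. The single dC peak without a wt overlap had a fold of 3.72. The 16 shared peaks of the wt list had a median fold of 7.72 and ran from 3.63 to 36.1, so their lower end overlapped the folds of the wt-only peaks.

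The pathway around the members was described from a list of 14 pre-B-cell receptor signalling genes. With the empty vector 11 of 14 had a Brg1 peak within 10 kb. In fetal liver cells with wt, dC, dPLD and F-GATA3 14 of 14 had one, and in A-MuLV cells 14 with wt and 13 with dC, where Blk had none. EBF1 peaks lay near 11 of 14 with wt and 12 of 14 with dC. The shares of all protein-coding genes with such a peak were 45.2% with the empty vector, 60% to 63.3% with the fetal liver versions, 52.2% and 52.1% for A-MuLV Brg1, and 19.9% and 32.9% for EBF1. By mean percentile of the highest fold over the 9 lists, Pik3cd (a catalytic subunit of PI3-kinase) came first at 96.7, followed by Plcg2 (phospholipase C gamma) at 93.8. Igll1 and Vpreb1, which share their highest peak, stood at 99.1 on the same scale, Vpreb2 at 89.9 and Vpreb3 at 88.1. The mean includes the empty-vector list, where the percentile was 94.9 for Igll1 and Vpreb1, 31.2 for Vpreb2 and 2.90 for Vpreb3. In that list it was 92.9 for Pik3cd and 81.9 for Plcg2. Median percentiles with EBF1 wt in fetal liver cells were 99.8 for the members, 97.4 for the signalling list and 38.4 for all protein-coding genes.

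Among 9 transcription factors known to act at these genes, 7 had a Brg1 peak with the empty vector (45.2% of all protein-coding genes), and Pax5 and Ikzf3 had none. All 9 had one with each EBF1 version in both kinds of cell (52.1% to 63.3% of all genes). EBF1 peaks lay near 8 of 9 with wt, where Irf8 had none, and near 8 of 9 with dC, where Tcf12 had none. Ebf1 itself had a mean percentile of 88.5. Pax5, the factor that commits cells to the B lineage, stood at 87.6, with values from 96.7 to 99.98 in the lists made with an EBF1 version for Brg1.

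The labelled stage was checked on the peaks, since no expression was used here. Of 10 pro-B marker genes, 5 had a Brg1 peak with the empty vector, close to the 45.2% of all protein-coding genes. In fetal liver cells 10 had one with each EBF1 version (60% to 63.3% of all genes), and in A-MuLV cells 8 with wt and 9 with dC (52.2% and 52.1%). Rag1 and Rag2 had none in the A-MuLV wt list, and Il7r had none in the A-MuLV dC list. Of 9 markers of stromal, T, myeloid and erythroid cells, 5 had a Brg1 peak with the empty vector, 6 with wt, dC and dPLD and 4 with F-GATA3. In the A-MuLV Brg1 lists 3 had one. With the empty vector, wt, dC and dPLD these counts lie near the shares of all genes, so they say little about the stage. Col1a2, Pdgfra and Gata1 had none in any list, whereas Klf1 had peaks in all 9 lists, Elane in 8 and Cd3g in 7. The part of these cells in the values of the members was not tested.

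The protein-coding genes whose peaks were most like those of each member were found by the mean absolute difference, over the 9 lists, of the percentile of the highest fold within 10 kb. For Igll1 and Vpreb1 they were Tbc1d16 (a mean difference of 1.15 percentile points), Tedc1 (1.40) and Plekhm3 (1.50). For Vpreb2 they were Ptp4a3 (2.41), Pik3r5 (2.50) and Dnah1 (2.90). For Vpreb3 they were Pde2a (0.976), Lrrc32 (1.03) and Pou2af1 (1.06), the last a coactivator of octamer-binding factors in B cells. Pde2a, Lrrc32 and Pou2af1 had no empty-vector peak within 10 kb, whereas Vpreb3 had one at percentile 2.90. This likeness is a description over lists that share cells and antibodies.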

How the data were processed

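ChIP-seq peak lists of 9 libraries (7 for Brg1, 2 for EBF1) were analysed, each from a group with 1 library, and 5 input samples were not used. Per the submitters' processing notes, MACS2 2.1.2, deepTools 3.3.1, SAMtools 1.9 and Bowtie2 2.3.3.1 were used, with GRCm38 as the build. The authors deposited for each peak its position and summit, a ratio (fold of ChIP signal over local background), −log10 p and −log10 q, and a score derived from the latter. The column meanings follow the peak format. Not given in the sources used here were the peak threshold, the treatment of duplicate reads and which input served each library. Per the labels, the single fetal liver input came from cells with EBF1 wt. The fold is the authors' own and was used to describe and rank peaks within a list.

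Gene bodies and promoter sequences came from RefSeq tables for GRCm38.p6, and positions are 1-based. A peak was near a gene when it overlapped the body extended by 10 kb by at least 1 bp, and peaks coincided when they shared at least 1 bp. The background is all 21887 protein-coding genes, 21263 of their promoters, or all peaks of a list, with exact Clopper-Pearson 95% intervals (scipy 1.17.1). Percentiles are of fold within the list, and 0 where a gene had no peak. The overlap code was tested on simulated data. No test was made across groups.

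The members and gene lists were chosen with earlier results of these data known. Named genes were the 4 members, their protein-coding neighbours within 10 kb, the signalling and factor list members with the highest mean fold percentile, and the 3 genes of most like pattern for each member.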

Additional observations from a re-analysis of the deposited data

Results flagged for a closer look

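The Brg1 overlap at Vpreb2 +3165, the weakest of the 8 EBF1 sites, went opposite ways in the 2 kinds of cell. In A-MuLV cells a Brg1 peak with a fold of 3.85 and a −log10 q of 3.93 was called with wt and none with dC. In fetal liver cells no wt peak overlapped the site, and a dC peak with a fold of 6.50 did. That dC peak also overlapped a wt peak with a fold of 6.93, whose summit lay 4108 bp from the start. Brg1 was thus called there with both versions, and only the dC peak reached as far as the site. The difference was not tested, since each group had 1 library. The fetal liver dC peak had its summit 997 bp from the site, and the lists differ in their lowest −log10 q.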

How the results depend on the processing

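With 1 library a group, neither the spread between libraries nor the read depth behind a peak is known, so a missing peak means that none was called. No paired analysis was possible because each group had 1 library. The alternatives for promoters, and that requiring the Brg1 peak to hold the EBF1 summit, were chosen after seeing the data. Under a −log10 q of at least 5, peaks near the members in A-MuLV Brg1 lists numbered 18 with wt and 11 with dC, and 33 of 35 counts stayed within 1.5 times their value. At 20 or more these were 6 and 6, the empty vector kept 1 peak, 1 EBF1 site with Brg1 and 2 genes with a peak, and fetal liver wt had 6 peaks. With lists of equal length (17687 for Brg1, 6155 for EBF1), fetal liver wt had 6 peaks, of which 3 were absent with the empty vector, not 7 of 11. Within 2 kb the peaks numbered 3 with the empty vector, dC, dPLD and F-GATA3, 4 with wt, 15 and 11 for A-MuLV Brg1 wt and dC, and 5 for EBF1 wt and dC. Of the wt peaks 2 were then absent with the empty vector, and of 5 EBF1 sites Brg1 peaks overlapped 1 with the empty vector and 5 in each of the 6 lists with an EBF1 version. Within 50 kb the fetal liver peaks were 24 with wt, 19 with dPLD, 18 with F-GATA3, 16 with dC and 9 with the empty vector, and 17 of the wt peaks were absent with the empty vector. With summits at most 200 bp apart, EBF1 sites with Brg1 were 0 with the empty vector, 5 with dC and 4 with dPLD. Of the 11 fetal liver wt peaks, 10 then had no empty-vector counterpart, and the same share over all wt peaks is not given here. With promoters of 1 kb on each side, 1 of 4 had an empty-vector peak (Igll1) and 4 of 4 an A-MuLV Brg1 wt peak. Requiring 50% overlap, or the EBF1 summit inside the Brg1 peak, moved none of the 8 or 7 counts beyond 1.5 times. The highest fold per gene and list was unchanged in 36 of 36 cases at −log10 q of 5 and in the lists of equal length, and in 25 of 35 within 2 kb.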
